A study of Mus musculus with 8 samples.

Results

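Complement components, the receptors for their split products and the surface regulator CD55 were examined in hepatic macrophages from mice with acetaminophen injury. The genes were taken by symbol from array rows with exactly 1 gene symbol, and where a gene had several rows the one of highest mean was used. Of the 9 genes listed, 8 were measured (C1qa, C1qb, C1qc, Cfb, Cfp, C3ar1, C5ar1 and Cd55), among 22180 genes in all. The expression of C3 was not analysed here. Each of the 8 had a single row. The study set 4 arrays of mice given recombinant CPS1 (rCPS1), 50 µg, against 4 arrays of mice given recombinant transferrin (rTF), 25 µg. CPS1 is a mitochondrial urea cycle enzyme of hepatocytes, and transferrin is the iron carrier of plasma. Both proteins were injected intravenously at the tail, acetaminophen (350 mg/kg) followed 12 h later by the intraperitoneal route, and all mice were FVB/N males aged 8 weeks. Both groups thus carried the injury, no uninjured group was analysed here, and protein and amount changed together. All titles name the same mouse number, so separate animals are not certain, and the p-values describe sample-to-sample spread that could be technical.

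Complement is a cascade of proteins that coats targets for uptake and draws in leukocytes. In the classical pathway C1q, assembled from the chains encoded by C1qa, C1qb and C1qc, binds antibody or dying cells. In the alternative pathway factor B joins the split product of C3 to form an enzyme that properdin stabilises, and the small fragments C3a and C5a signal through the receptors encoded by C3ar1 and C5ar1. Hepatocytes make most plasma complement, whereas tissue macrophages are the main makers of C1q, and myeloid cells of properdin.

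The C1q chains and properdin gave the 6 highest correlations over arrays among the members, so the sequence before their starts is shown for those in the promoter table. The 3 C1q genes are neighbours on mouse chromosome 4, in the order C1qb, C1qc, C1qa, with no other annotated gene between them. The 250 bases before each start, from RefSeq (GRCm38.p6, minus strand, 5′ to 3′), lie at chr4:136886201-136886450 for C1qb, chr4:136892915-136893164 for C1qc and chrX:20931556-20931805 for Cfp. Capitals mark the core motif GAGGAA of PU.1, a transcription factor of macrophages, on either strand.
C1qb: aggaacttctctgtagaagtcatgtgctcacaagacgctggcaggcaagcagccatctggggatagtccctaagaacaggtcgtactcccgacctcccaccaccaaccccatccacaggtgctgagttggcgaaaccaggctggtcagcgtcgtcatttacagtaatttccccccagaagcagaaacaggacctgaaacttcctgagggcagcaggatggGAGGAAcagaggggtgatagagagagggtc
C1qc: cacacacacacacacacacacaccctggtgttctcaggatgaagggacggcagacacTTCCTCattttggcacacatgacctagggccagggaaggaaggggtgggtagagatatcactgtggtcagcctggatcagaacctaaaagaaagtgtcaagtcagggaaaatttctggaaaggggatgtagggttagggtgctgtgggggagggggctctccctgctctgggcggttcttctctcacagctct
Cfp: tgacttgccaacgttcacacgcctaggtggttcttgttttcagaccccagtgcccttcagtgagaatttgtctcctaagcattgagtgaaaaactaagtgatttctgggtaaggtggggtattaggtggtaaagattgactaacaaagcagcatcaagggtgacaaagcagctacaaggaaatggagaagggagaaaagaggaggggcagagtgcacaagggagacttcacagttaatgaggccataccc

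The motif began 30 bases before the start of C1qb, on the strand of the gene, and lay on the other strand of C1qc, reaching 193 bases before the start. It was not in the Cfp window, nor in those of C3, C3ar1, C5ar1 and Cd55, which were searched too. Of the 32851 windows of this length, 23.3% held it, so a match is a description of these letters and not a binding site. Searched in the same way on both strands were TTCNNNGAA (STAT, in 7.02% of windows) and TTGCNNAA (C/EBP, 9.56%). So were GAAA repeated after 2 free bases (interferon response element, 2.98%) and GGGA parted from TTCC by 2 free bases (NF-kappaB, 1.21%). None of these patterns was in the 3 windows shown. Of the other windows, only that of C3 held one, the C/EBP pattern.

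None of the 8 genes passed the test between rCPS1 and rTF, and their differences on the log2 scale lay between -0.18 and 0.21. In limma's moderated test over all genes, with Benjamini-Hochberg adjustment, 0 of the 8 had an adjusted p under 0.05, as did 0% of the 22180 genes. At an unadjusted p under 0.05 the count was also 0 of 8, beside 4.67% of all genes (1.88% higher and 2.79% lower with rCPS1). The groups did not overlap for 0 of the 8, beside 2.92% of all genes. Of the 8 genes, 5 had the higher mean with rCPS1 and 3 the lower, as did 45.6% and 54.4% of all genes, with a median difference of 0.02, against a median of -0.018 over all genes. A p that misses the threshold does not show that the groups were alike, and the 95% intervals below give the changes these arrays leave possible. The array-to-array spread within a group was larger than the group difference for every C1q chain.

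The chains of C1q were high on the same 3 arrays, which came from both groups. C1qa (probe set 17431619) was at 9.38, 8.69, 9.49 and 8.83 on the rCPS1 arrays and at 9.40, 8.70, 8.70 and 9.06 on the rTF arrays, in log2 units and in replicate order. Replicates 1 and 3 of rCPS1 and replicate 1 of rTF held the high values, and the groups overlapped over nearly their whole range. C1qa averaged 9.10 ± 0.40 with rCPS1 and 8.97 ± 0.34 with rTF (SD, n = 4 each), a difference of 0.13 ± 0.22 (SE), with a 95% interval of -0.36 to 0.62, or 0.777-fold to 1.54-fold.

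C1qb (probe set 17431607) was at 10.06, 9.49, 10.03 and 9.49 on the rCPS1 arrays and at 9.98, 9.38, 9.54 and 9.75 on the rTF arrays. The same 3 arrays were highest. Its means were 9.77 ± 0.32 with rCPS1 and 9.66 ± 0.26 with rTF (SD, n = 4 each), a difference of 0.10 ± 0.19 (SE; 95% interval -0.31 to 0.52). C1qc (probe set 17431612) was at 8.47, 8.12, 8.69 and 8.04 with rCPS1 and at 8.48, 7.89, 7.80 and 8.31 with rTF. Again these 3 arrays led, and rTF replicates 2 and 3 were the lowest. C1qc averaged 8.33 ± 0.30 with rCPS1 and 8.12 ± 0.33 with rTF (SD, n = 4 each), a difference of 0.21 ± 0.20 (SE; 95% interval -0.23 to 0.65), the largest of the 8 genes in either direction. The values of different probe sets are brightness on the array and do not rank the amounts of the 3 transcripts.

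**Figure D1:**
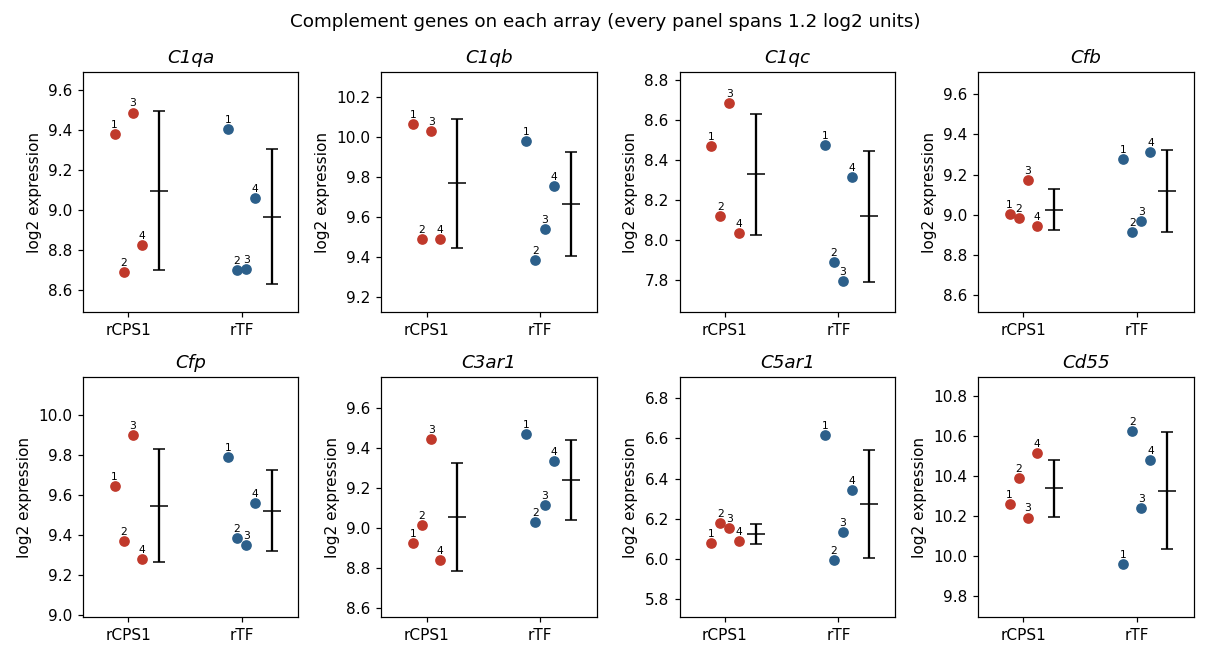
Log2 expression of the 8 complement genes, with rCPS1 arrays on the left of each panel and rTF arrays on the right. Points are arrays, numbered by replicate, and the bars beside them are the mean ± SD (n = 4). In every panel the groups overlap, and for the C1q chains and Cfp replicates 1 and 3 of rCPS1 and replicate 1 of rTF are the highest arrays.

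The genes of the alternative pathway gave small differences as well. Cfp (probe set 17540521), which encodes properdin, the stabiliser of the alternative pathway enzyme, was at 9.64, 9.37, 9.90 and 9.28 with rCPS1 and at 9.79, 9.38, 9.35 and 9.56 with rTF. Its high arrays were those of the C1q chains. The means were 9.55 ± 0.28 with rCPS1 and 9.52 ± 0.20 with rTF (SD, n = 4 each), a difference of 0.027 ± 0.16 (SE; 95% interval -0.34 to 0.39). Cfb (probe set 17344064), the gene of factor B, the protease of that enzyme, was at 9.001, 8.98, 9.17 and 8.94 with rCPS1 and at 9.28, 8.91, 8.97 and 9.31 with rTF. Here rTF replicates 1 and 4 were above all other arrays, and rTF replicate 2 was the lowest of the 8. Cfb averaged 9.02 ± 0.10 with rCPS1 and 9.12 ± 0.21 with rTF (SD, n = 4 each), a difference of -0.092 ± 0.13 (SE; 95% interval -0.38 to 0.19).

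Both anaphylatoxin receptors had the lower mean with rCPS1, within the spread between arrays. C3ar1 (probe set 17470616), the receptor for C3a, was at 8.93, 9.02, 9.45 and 8.84 with rCPS1 and at 9.47, 9.03, 9.12 and 9.34 with rTF. All rCPS1 arrays except replicate 3 lay below every rTF array. It averaged 9.06 ± 0.27 with rCPS1 and 9.24 ± 0.20 with rTF (SD, n = 4 each), a difference of -0.18 ± 0.16 (SE; 95% interval -0.54 to 0.17, or 0.689-fold to 1.13-fold). C5ar1 (probe set 17486864), the receptor for C5a, was at 6.08, 6.18, 6.15 and 6.09 with rCPS1 and at 6.62, 5.99, 6.13 and 6.34 with rTF. The rCPS1 arrays lay close together and inside the range of the rTF arrays. C5ar1 averaged 6.12 ± 0.049 with rCPS1 and 6.27 ± 0.27 with rTF (SD, n = 4 each), a difference of -0.15 ± 0.14 (SE; 95% interval -0.46 to 0.17). In this limma fit the adjusted p was 0.98 for each receptor and 0.98 or higher for all 8 genes. Neutrophils and monocytes also carry these receptors. The mean of 12 neutrophil markers was 4.63 to 5.42 with rCPS1 and 5.67 to 6.42 with rTF, with 12 of 12 lower and 9 of them at an unadjusted p under 0.05. The mean of 10 monocyte markers was 7.53 to 7.72 with rCPS1 and 8.12 to 8.48 with rTF. Of these, 10 of 10 were lower and 7 had an unadjusted p under 0.05. Over all genes, 54.4% had the lower mean and 2.79% were lower at an unadjusted p under 0.05. Both marker means lay above the median row of the arrays, and no marker passed adjustment. The part of neutrophils and monocytes in the receptor values was not tested.

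Cd55 (probe set 17226622) encodes decay-accelerating factor, a surface protein that takes the enzymes of complement apart on the body's own cells. It was at 10.26, 10.39, 10.19 and 10.52 with rCPS1 and at 9.96, 10.63, 10.24 and 10.48 with rTF. Its lowest array, rTF replicate 1, was among the highest for the C1q chains. The means were 10.34 ± 0.14 with rCPS1 and 10.33 ± 0.29 with rTF (SD, n = 4 each), a difference of 0.013 ± 0.16 (SE; 95% interval -0.33 to 0.36). Mouse has a close relative, Cd55b, whose row was far dimmer, at a mean of 4.42 with rCPS1 and 4.06 with rTF. How much signal the rows of Cd55 and Cd55b share was not tested. Endothelial cells also carry CD55, and the mean level of 10 endothelial markers was 11.21 to 11.38 on the rCPS1 arrays and 11.13 to 11.37 on the rTF arrays, where rTF replicate 1 was the lowest. The part of endothelial RNA in the Cd55 value was not tested.

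Across the 8 arrays, whatever the group, the 3 chains of C1q varied together. C1qa correlated with C1qb at Pearson r = 0.98 (exact permutation p = 0.00193, adjusted p = 0.00387) and Spearman rho = 0.81 (exact permutation p = 0.0218, adjusted p = 0.0372). For C1qa with C1qc r was 0.94 (exact permutation p = 0.000967, adjusted p = 0.00387) and rho 0.83 (p = 0.0154, adjusted p = 0.0372), and for C1qb with C1qc r was 0.91 (exact permutation p = 0.00362, adjusted p = 0.00483) and rho 0.79 (p = 0.0279, adjusted p = 0.0372). These tests are two-sided, and adjustment is over the 4 pairs computed, the fourth being C3ar1 with C5ar1. Without the 2 arrays farthest from the median of the first gene, r stayed at 0.97, 0.89 and 0.86. Within an array, C1qa minus C1qb varied by an SD of 0.098 over the 8 arrays, whereas C1qa alone varied by 0.35 and C1qb by 0.28. The points share their arrays, their RNA and their normalization, and groups of 4 are too small for a correlation within each group. The labels and the file give no batch, so none was examined.

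The receptors were coupled more loosely. C3ar1 and C5ar1 correlated at r = 0.72 (exact permutation p = 0.0283, adjusted p = 0.0283) and rho = 0.67 (exact permutation p = 0.0831, adjusted p = 0.0831), and r was 0.77 without the 2 farthest arrays. Taken as deviations from the group means, the correlation was 0.67 (permutation p = 0.0708, adjusted p = 0.0708), so it does not hold at 0.05 on that scale. Deviations within a group are not independent, so permuting them over all arrays gives only an approximate p.

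All 28 pairs of the 8 genes were then computed, a step chosen after seeing the data. After adjustment over the 28, 8 pairs had an exact permutation p of r under 0.05. They were the 3 pairs of C1q chains, each chain with Cfp (r = 0.94, 0.91 and 0.92 for C1qa, C1qb and C1qc) and Cfb with each receptor (r = 0.86 with C3ar1 and 0.82 with C5ar1), with exact permutation p of 0.000967 to 0.0128 and adjusted p of 0.0161 to 0.0448. By rank the same 8 pairs had rho of 0.64 to 0.88, exact permutation p of 0.00724 to 0.0962 and adjusted p of 0.128 to 0.158, so none passed over the 28 by rho. For Cfb and C5ar1 r was 0.56 without the 2 farthest arrays, rTF replicates 1 and 4, so that relation rests in large part on them. Without the 2 farthest arrays r was 0.83 for Cfb with C3ar1 and 0.89 to 0.93 for the chains with Cfp. Cd55 had a negative r with the 7 other genes, from -0.72 with C1qb to -0.49 with Cfb, and none of these passed adjustment. With the 2 arrays farthest from the median of the other gene left out, r was -0.83 to -0.69 with C1qb, C1qc, Cfb and C5ar1. The arrays left out differ between these genes, so the values do not rank the pairs. For C1qa, Cfp and C3ar1 the arrays left out were rCPS1 replicate 3 and rTF replicate 1, and r was -0.35, -0.32 and 0.011. Those negative values thus rest in large part on these arrays.

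**Figure D2:**
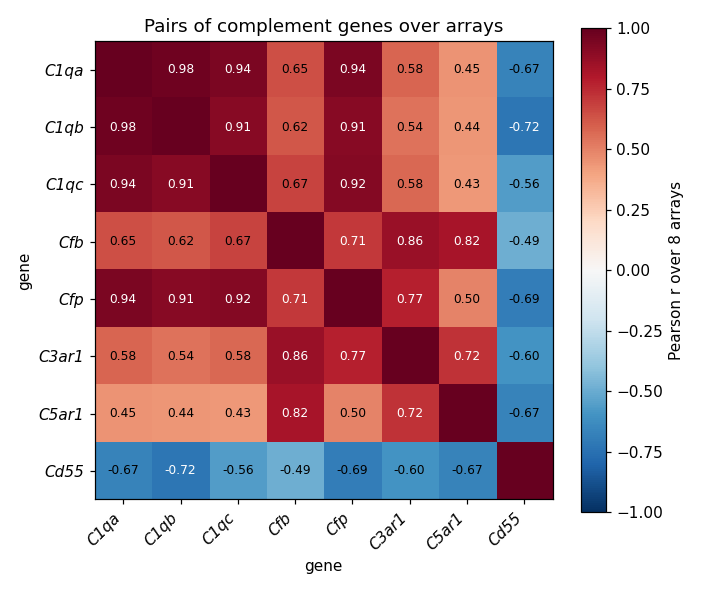
Pearson r of log2 expression over the 8 arrays for each pair of complement genes, from -1 (blue) to 1 (red). The C1q chains and Cfp are coupled at 0.91 to 0.98, Cfb and the receptors at 0.72 to 0.86, and Cd55 is negative with all.

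The genes of pattern most like that of C1q were ranked over all genes. Likeness was measured as r over the 8 arrays with the mean of the 3 chains, among 16102 genes with an SD over 0.1, and is given as a description. The 3 closest were Timd4 (r = 0.99), a receptor for phosphatidylserine on dying cells, Cd5l (r = 0.98), a secreted protein of tissue macrophages, and the kinase gene Dmpk (r = 0.97). Cfp was the 10th closest. Of the other Kupffer cell markers that were ranked, the lectin gene Clec4f was the 23rd (r = 0.92). The macrophage surface receptor gene Adgre1 was the 36th (r = 0.90) and Vsig4 the 99th (r = 0.85). For single chains, Timd4 was among the 3 closest genes each time. Besides the other chains and Cd5l, the lists held Aldh1a7 for C1qc (r = 0.98) and Slc5a11 for C1qb (r = 0.96), the latter at only 2.91 to 3.59 log2 units. Timd4 itself was at 9.51, 9.12, 9.62 and 9.12 with rCPS1 and at 9.44, 9.03, 9.06 and 9.38 with rTF. It was high on the same 3 arrays as C1q, and also on rTF replicate 4.

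The mean of 11 Kupffer cell markers, none of them a C1q gene, was at 9.47, 9.03, 9.70 and 9.03 with rCPS1 and at 9.55, 8.92, 8.87 and 9.20 with rTF. Of the 11, 10 were higher with rCPS1 and 1 lower, 0 with an unadjusted p under 0.05. The mean of the C1q chains was at 9.31, 8.77, 9.40 and 8.78 with rCPS1 and at 9.29, 8.66, 8.68 and 9.04 with rTF. Correlations of C1q with the marker lists were not among the planned tests, so their p-values are given as a description. The 2 profiles correlated at r = 0.99 (exact permutation p = 0.000174, adjusted p = 0.00156 over 9 marker lists) and rho = 0.95 (exact permutation p = 0.00114, adjusted p = 0.0103), and r was 0.98 without the 2 farthest arrays. Single markers could depart from C1q, and not all 11 were ranked against it. Spic was at 10.61 and 10.14 on rCPS1 replicates 2 and 3, where the C1q mean was at 8.77 and 9.40. Slc40a1 was at 10.22 and 10.23 on rTF replicates 1 and 2, where the C1q mean was at 9.29 and 8.66. For the 8 lists of monocytes, neutrophils, hepatocytes, endothelium, T and NK cells, B cells, dendritic cells and stellate cells, r lay between -0.68 (endothelium, exact permutation p = 0.0562, adjusted p = 0.253) and 0.069, and none passed. In bulk RNA, fewer Kupffer cells and less RNA of these genes per cell cannot be told apart. Transcripts of other liver cells were also bright in these samples. The endothelial marker gene Clec4g averaged 12.45 with rCPS1 and 12.47 with rTF, and the hepatocyte gene Alb 11.36 and 11.43. The part of each cell type in the complement levels was not tested. With the Kupffer marker mean as a covariate in the limma fit over all genes, added after seeing the data, the differences of C1qa, C1qb and C1qc were -0.065 ± 0.11, -0.044 ± 0.12 and 0.045 ± 0.11 (SE), and that of C3ar1 was -0.29 ± 0.13 (95% interval -0.58 to 0.0053). All 8 then had an adjusted p of 0.994, and 0 of 22180 genes passed.

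**Figure D3:**
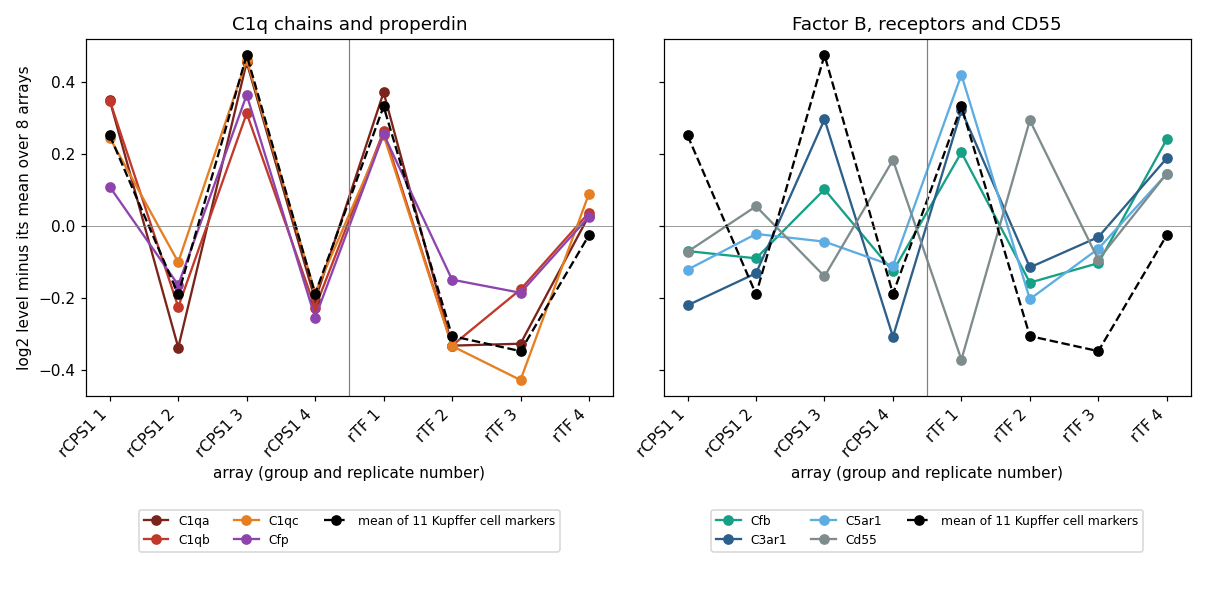
Log2 level of each gene minus its mean over the 8 arrays, with rCPS1 arrays left of the vertical line and rTF arrays right of it. Lines join the values of one gene and imply no order of replicates. The C1q chains and Cfp (left panel) follow the mean of 11 Kupffer cell markers (dashed), whereas in the right panel Cfb, C3ar1 and C5ar1 depart from it on several arrays and Cd55 is lowest on rTF replicate 1, where it is high.

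No further complement gene passed the test. Of 53 further genes listed by role, 47 were measured, 20 higher and 27 lower with rCPS1, with a median log2 difference of -0.043. In the limma test 0 passed adjustment, and 2 had an unadjusted p under 0.05 in either direction, beside 4.67% of all genes. Both were lower with rCPS1, as were 2.79% of all genes at that threshold. The median array row was dimmer than 37 of the 47. Masp2 lay only on a row shared with another gene, and the rest of the 53, Cfd among them, were not analysed here.

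The 2 genes were receptor subunits for fragments of C3. Itgax, the alpha chain of complement receptor 4, was at 7.22, 7.32, 7.55 and 7.38 with rCPS1 and at 7.52, 7.92, 7.74 and 7.84 with rTF, a difference of -0.39 ± 0.13 (SE). Only rCPS1 replicate 3 reached the rTF range. Itgam, the alpha chain of complement receptor 3, was at 8.83, 9.08, 8.99 and 8.73 with rCPS1 and at 9.15, 9.18, 9.33 and 9.15 with rTF, a difference of -0.29 ± 0.12 (SE). The groups did not overlap, which held for 1 of the 47 genes (2.92% of all genes). In the limma fit the adjusted p was 0.98 for both. Itgb2, the beta chain that both receptors share, differed by -0.12 ± 0.13, and Vsig4, the complement receptor of Kupffer cells, by 0.24 ± 0.25. C5ar2, the second receptor for C5a, differed by -0.043 ± 0.13. Monocytes and neutrophils carry Itgam too, and Itgam is one of the 10 monocyte markers above. The part of the lower monocyte and neutrophil marker means in the Itgam and Itgax values was not tested.

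By role, and beside the C1q chains, which all had the higher mean with rCPS1, the further genes of the classical pathway were 1 higher and 6 lower, with C2, the protease of its enzyme, at 0.19 ± 0.17 and C4b at -0.032 ± 0.19 (SE). For C2, rTF replicate 1 was at 6.97, below the other rTF arrays at 7.62 to 7.67. C4b and C4a are near-identical, and how much signal their rows share was not tested, so their values are uncertain. The C4b row averaged 7.04 with rCPS1 and 7.07 with rTF, and the dimmer C4a row 1.91 and 2.02. Lectin pathway genes were 3 higher and 4 lower, from -0.22 to 0.17. The terminal components, which form the membrane pore, were 3 higher and 4 lower, with Hc, the gene of C5, at -0.006 ± 0.20 and C7 at -0.67 ± 0.67. Soluble regulators were 2 higher and 6 lower, with Cfhr2 at -0.38 ± 0.22 and dim on all arrays. Membrane regulators were 7 higher and 0 lower, from 0.031 to 0.36, none with an unadjusted p under 0.05, and 5 of the 7 lay above the median row. Among the 7 were Cd55b (0.36 ± 0.24), Cd59b (0.28 ± 0.23), Susd4, dimmer than the median row (0.23 ± 0.14), Cd59a, a blocker of the pore (0.058 ± 0.16), and Cr1l, the rodent inhibitor Crry (0.058 ± 0.095). Many of the secreted components and soluble regulators are hepatocyte products. The mean of 11 hepatocyte markers was 7.19 to 7.97 with rCPS1 and 7.57 to 8.23 with rTF, with 3 higher and 8 lower.

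**Figure D4:**
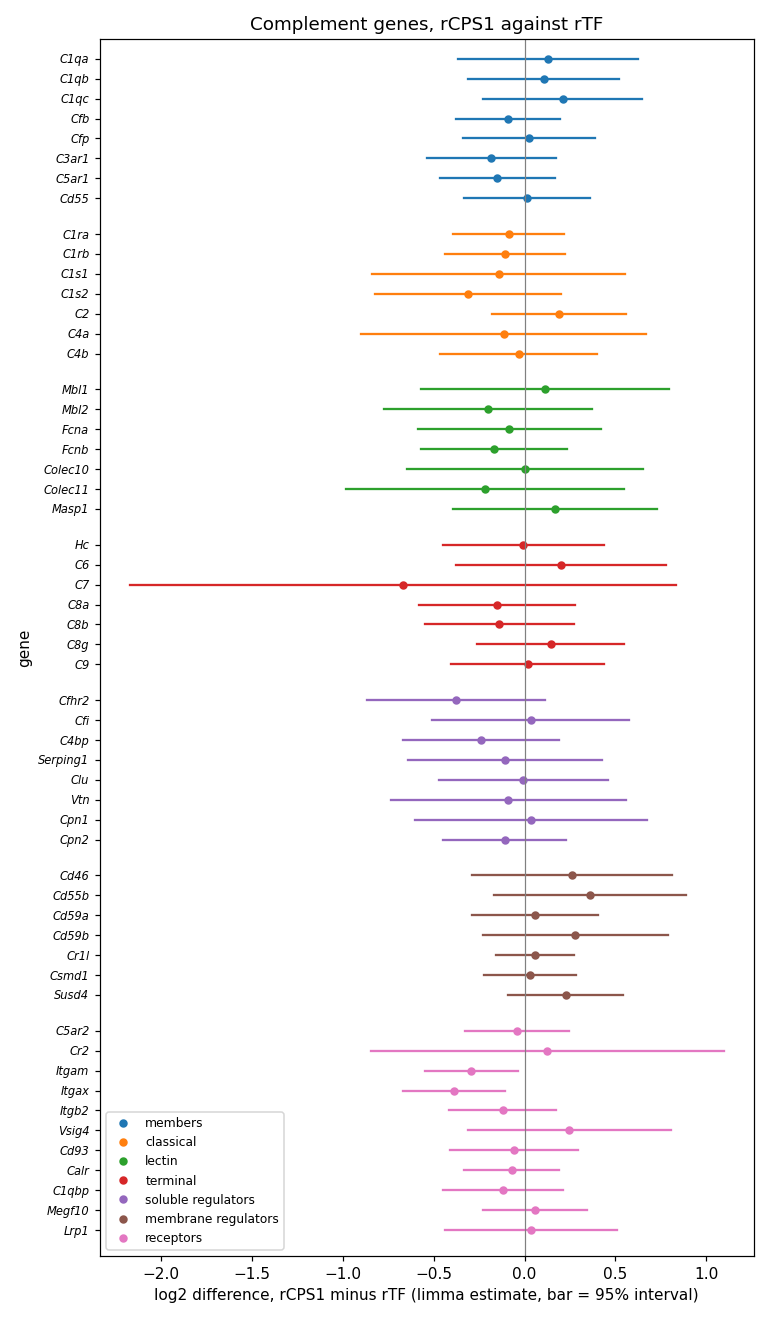
Log2 difference (rCPS1 minus rTF) of the 8 members and the 47 further complement genes, grouped by role, with the 95% interval of the limma fit as a bar. Every interval except those of Itgam and Itgax holds 0, and no gene passed adjustment over the 22180 genes.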

How the data were processed

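Total RNA was measured on 8 Affymetrix arrays. The deposited values are levels on the log2 scale that the authors made with RMA, per the submitters' processing notes, which also name limma and give no versions. RMA normalizes between arrays, which can hide a change common to most genes, and the deposited array medians still ran from 3.55 to 3.68. The genome build of the array was not given in the sources used here. Groups and replicate numbers came from the titles. Of 41345 rows, 23521 had exactly 1 gene symbol, 1814 several and 16010 none, and 22180 genes were tested with no filter on dim rows. By Entrez ID all 8 members matched the RefSeq gene table, and 7 of the 9 listed genes had a promoter.

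The groups were tested with lmFit and eBayes of limma 3.58.1 under R 4.3.3 (two-sided, no covariate, Benjamini-Hochberg over all genes at 0.05). Correlations used permutation over all 40320 pairings, which is exact except for deviations from the group means, where it is approximate. The fit and the correlations were tested on simulated data. The members and gene lists were chosen with earlier results of these data known. Named were the members, further complement genes of smallest p or fixed by name, and the 3 genes of closest pattern, leaving out predicted genes, clones, small RNA genes and chemosensory receptors. Outside that rule, C7 was named, which had the largest difference in size among the 47 further complement genes. C4a, Cd46 and single cell type markers were also named. Precision is limited by the number of arrays (median SE of a difference 0.15). Same-numbered samples deviated together at r = -0.12, -0.033, -0.0053 and 0.025, so the numbers were not taken to pair the arrays. Alternatives were a variance trend, robust variance, array weights (statmod 1.5.0 installed), a replicate block, quantile normalization, a gene's rows averaged, all array rows, only rows above the median level, and each array left out in turn.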

Additional observations from a re-analysis of the deposited data

Results flagged for a closer look

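In groups of 4 arrays, Dixon's ratio was used to ask whether the highest or lowest array of a gene lay far from the rest. One did so in 3 of 44 groups tested, where chance gives 1 in 20, or 2.2. None of the 3 was among the 8 members. Itgam was at 9.33 in rTF replicate 3, and the other rTF arrays were at 9.15 to 9.18. Itgb2 was at 11.05 in rTF replicate 1, with the others at 10.55 to 10.62. C2 was at 6.97 in rTF replicate 1, with the others at 7.62 to 7.67.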

How the results depend on the processing

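Under 16 other settings for each of the 8 members (128 in all), the adjusted p was 0.902 or higher, and 118 differences kept their sign. A variance trend, robust variance, the replicate block, averaged rows, all array rows and only rows above the median level could not move a difference. Each member has a single row, and these fits gave the same estimate, so their kept signs were fixed in advance. With array weights Cd55 differed by -0.025. With the Kupffer marker mean as a covariate, added after seeing the data, C1qa, C1qb and Cfp turned to -0.065, -0.044 and -0.10. With 1 array left out, the difference ran from -7.92e-05 to 0.28 for C1qa (lowest without rCPS1 replicate 3), 0.0058 to 0.21 for C1qb, 0.091 to 0.33 for C1qc, -0.16 to -0.027 for Cfb and -0.31 to -0.11 for C3ar1. It ran from -0.24 to -0.034 for C5ar1, -0.090 to 0.12 for Cfp (below 0 without rCPS1 replicate 1 or 3 or rTF replicate 2 or 3) and -0.11 to 0.11 for Cd55 (below 0 without rCPS1 replicate 2 or 4 or rTF replicate 1 or 3). The median of the 47 further genes ran from -0.074 to 0.031 and was above 0 only without rCPS1 replicate 4. The count of genes past the threshold was 0 in every fit run, over all genes and over the 47. With the replicate block, 0 genes passed, and C1qa, for example, differed by 0.13 ± 0.19 (SE). The correlation of C3ar1 with C5ar1 was 0.67 on deviations from the group means and 0.60 to 0.89 with 1 array left out. The correlations of the C1q chains kept their side of the threshold on deviations from the group means (by the approximate permutation p) and after quantile normalization. With 1 array left out they ran from 0.97 to 0.98 (C1qa with C1qb), 0.92 to 0.98 (C1qa with C1qc) and 0.89 to 0.96 (C1qb with C1qc). The cause of these changes was not tested.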
